A study of Mus musculus with 12 samples.

Results

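The schlafen genes encode a family of proteins found in immune and other cells, and 7 of them, Slfn1, Slfn2, Slfn3, Slfn4, Slfn5, Slfn8 and Slfn9, were described here across 12 mouse tumour libraries. They were taken by gene symbol, 7 of 55415 entries of the deposited expression table, and they were chosen by the measured rise of Slfn4 under the compound and under radiation. Those single-treatment contrasts with control are therefore given as descriptions, and tests were kept to the combination and to radiation against the compound. All 7 genes passed the filter on low values, which asked for 1 FPKM or more in 3 or more libraries and kept 13668 entries. FPKM is the count of fragments scaled to gene length and to library size.

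Several schlafen genes are induced by type I interferon, and the family is best known for slowing growth and holding immune cells in quiescence. The members share an N-terminal core region. Short members (Slfn1, Slfn2) hold little more than it, intermediate ones (Slfn3, Slfn4) carry a linker region as well, and long ones (Slfn5, Slfn8, Slfn9) add a helicase-like part. Some family proteins cleave or protect transfer RNA, and the human long member SLFN11 is known for making cancer cells sensitive to DNA-damaging drugs.

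CT26 is a colon carcinoma cell line from BALB/c mice, and RNA came from whole CT26 tumour tissue. There were 4 groups of 3 libraries: mice given Complex 1 and radiation (the combination), mice given radiation, mice given Complex 1, and untreated control mice. The study's title concerns a platinum complex activated by X-rays, DNA damage and the abscopal effect, a response in tumours that were not irradiated. Dose and time are not in the labels, nor is whether the sampled tumour lay in the field, or whether each library came from a separate animal, so p-values measure the spread between these libraries, which may be technical.

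Library totals were 15601468 to 19112042 counts. The epithelial markers Krt8, Krt19, Epcam, Cldn4, Vil1 and Cdx2 were under 1 FPKM in every library. Complex 1 replicate 3 stood apart from its group in immune genes. Its summed FPKM over 15 interferon-induced genes was 1114, against 491.7 and 528.2 in the other two Complex 1 libraries. Radiation replicate 2 had a summed T cell marker level of 10.68 FPKM, against 36.6 and 32.83 FPKM in the other two radiation libraries. Control replicate 2 had Xist at 0.02 FPKM and 28 counts of 4 Y-linked genes, while Xist was at 9.2 to 14.2 FPKM elsewhere, with no more than 1 Y-linked count in any of those 11 libraries. The schlafen counts are given with and without these libraries, and several list counts are given without one of them as well.

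All 7 genes lie in one cluster on chromosome 11, spanning 263.8 kb of mm39. From its start, Slfn5 (82842175-82855666) comes first, followed by Slfn9 (82869216-82882656) and Slfn8 (82892984-82911636), both on the minus strand. Slfn2 (82955938-82961504), Slfn1 (83007675-83013496), Slfn4 (83066012-83081042) and Slfn3 (83082156-83105980) follow on the plus strand. Part of their transcript sequence occurs in other genes too. Of the distinct 31-base runs in their transcripts, 1.96% of those of Slfn1, 10.8% of Slfn2, 13.4% of Slfn5, 20.9% of Slfn4, 24.6% of Slfn9, 27.3% of Slfn8 and 30.9% of Slfn3 occur in another gene as well. For Slfn5 the main partner is Slfn5os, an overlapping entry on the opposite strand (7.99%). Slfn4 shares 12.9% of its runs with Slfn3, and Slfn8 shares 19.1% with Slfn9, so the levels of these pairs are less certain than that of Slfn1.

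The sequences upstream of the start sites are shown because members with near-copies of the same upstream sequence had different calls in these tumours. Each is the 250 bases before the RefSeq start, 5′ to 3′ along the gene, from GRCm38.p6, an older build than that of the table. Slfn8 (chr11:83020811-83021060, minus strand) and Slfn9 (chr11:82991831-82992080, minus strand) are near-copies, with 206 of 242 aligned bases identical. Capitals in these 2 mark the core of the interferon-stimulated response element, which reads GAAA, any 2 bases and GAAA again and is here on the opposite strand. Its first printed base is at position -48 from the start of Slfn8 and -45 from that of Slfn9; RefSeq has a second start for Slfn8, from which it is at -136.
Slfn8: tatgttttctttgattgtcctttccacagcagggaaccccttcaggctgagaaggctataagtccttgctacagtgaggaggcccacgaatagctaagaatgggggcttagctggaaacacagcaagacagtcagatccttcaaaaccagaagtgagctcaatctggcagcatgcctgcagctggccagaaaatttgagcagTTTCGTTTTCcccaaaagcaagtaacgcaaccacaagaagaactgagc
Slfn9: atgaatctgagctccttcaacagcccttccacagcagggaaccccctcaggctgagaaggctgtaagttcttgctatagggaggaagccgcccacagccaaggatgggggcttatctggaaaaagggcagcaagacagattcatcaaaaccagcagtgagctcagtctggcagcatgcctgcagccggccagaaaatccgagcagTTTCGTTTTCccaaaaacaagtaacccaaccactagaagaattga
Slfn5 (chr11:82951852-82952101, plus strand) held the same core on its own strand from position -155, as marked in capitals.
Slfn5: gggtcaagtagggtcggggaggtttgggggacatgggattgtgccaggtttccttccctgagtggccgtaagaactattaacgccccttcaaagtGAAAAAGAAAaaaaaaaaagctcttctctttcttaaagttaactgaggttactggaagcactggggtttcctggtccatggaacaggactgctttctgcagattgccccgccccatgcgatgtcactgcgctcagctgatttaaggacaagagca
Slfn4 (chr11:83174936-83175185), Slfn1 (chr11:83116570-83116819) and Slfn2 (chr11:83064862-83065111), all on the plus strand, held no such core but shared the run of 11 letters in capitals, which begins at positions -73, -74 and -55. For Slfn1 the bases just after the RefSeq start were not found in its GENCODE M21 transcripts, unlike those of the other genes. Its start site and the position -74 are therefore less certain.
Slfn4: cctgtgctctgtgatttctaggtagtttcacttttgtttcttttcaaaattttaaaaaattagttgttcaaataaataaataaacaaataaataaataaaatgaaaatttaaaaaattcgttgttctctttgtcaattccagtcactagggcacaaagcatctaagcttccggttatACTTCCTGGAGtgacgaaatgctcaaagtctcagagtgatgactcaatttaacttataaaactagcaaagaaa
Slfn1: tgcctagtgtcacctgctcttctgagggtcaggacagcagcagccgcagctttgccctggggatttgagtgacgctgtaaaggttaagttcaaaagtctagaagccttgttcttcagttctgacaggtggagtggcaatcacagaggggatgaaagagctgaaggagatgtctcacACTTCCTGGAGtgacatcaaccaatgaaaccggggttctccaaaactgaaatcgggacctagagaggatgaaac
Slfn2: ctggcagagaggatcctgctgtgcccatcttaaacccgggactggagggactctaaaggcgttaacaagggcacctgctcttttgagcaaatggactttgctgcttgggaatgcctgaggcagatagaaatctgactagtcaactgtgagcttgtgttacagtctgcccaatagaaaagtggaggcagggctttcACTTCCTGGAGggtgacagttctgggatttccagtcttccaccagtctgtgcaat
Searched on both strands, the response element core was in 978 of 32851 upstream windows of all genes (2.98%). The shared run was picked after the sequences were seen, and it was in 20 of those windows (0.0609%). The core TTCNNNGAA of an interferon gamma-activated site was in 7.02% of windows and in none of the 7 genes. An NF-kB consensus was in 7.25% of windows; it matched once upstream of Slfn1 and at 1 place, on both strands, upstream of Slfn9. The window of Slfn3 held no response element core and the first 9 of the 11 letters of the shared run. These matches are letters in a window, and binding was not measured.

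Set against the control tumours, the combination tumours had higher levels of 5 of the 7 schlafen genes (Slfn4, Slfn1, Slfn5, Slfn2 and Slfn8), between 2.01-fold and 9.18-fold, whereas Slfn9 and Slfn3 stayed within the spread of the libraries. Slfn4 had the largest fold change of the 7. The question here is what the treatments given together left in the tumour relative to none.

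Slfn4, a member of myeloid cells that changes during macrophage activation, had 61.7, 53.71 and 33.99 FPKM in the combination libraries. It had 13.02, 34.54 and 20.34 FPKM in the radiation libraries and 19.89, 16.53 and 39.99 FPKM in the Complex 1 libraries. It had 5.34, 6.55 and 3.82 FPKM in the control libraries. Every treated library was above every control library, and the 3 treated groups overlapped one another. The means were 49.8 ± 14.3, 22.6 ± 10.9, 25.5 ± 12.7 and 5.24 ± 1.37 FPKM (SD, n = 3 each) for combination, radiation, Complex 1 and control. The log2 fold change of combination over control was 3.20 ± 0.41 (SE), with a 95% interval of 2.32 to 4.08 and an adjusted p of 0.00024 in the quasi-likelihood test of edgeR (Benjamini-Hochberg over all 13668 entries).

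Slfn1, a short member that slows the growth of thymocytes when overexpressed, had 25.09, 18.99 and 18.58 FPKM in combination libraries. It had 13.94, 18.68 and 14.59 FPKM in radiation libraries, 7.57, 7.43 and 13.7 FPKM in Complex 1 libraries, and 3.63, 6.65 and 6.39 FPKM in control libraries. The libraries fell in the order combination, radiation, Complex 1, control, with an overlap only between combination and radiation, at 18.58 against 18.68 FPKM. Its log2 fold change of combination over control was 1.86 ± 0.26 (edgeR, adjusted p = 0.00042).

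Slfn2, required for T cells and monocytes to remain quiescent, was the highest of the 7 in every combination library. It had 74.99, 65.61 and 58.38 FPKM there, 45.56, 54.09 and 52.4 FPKM with radiation, 29.49, 31.59 and 51.87 FPKM with Complex 1, and 18.5, 22.89 and 26.27 FPKM in control. All 3 combination libraries were above all libraries of the other 3 groups, and Complex 1 replicate 3 reached the radiation range. Combination over control gave a log2 fold change of 1.51 ± 0.19 (edgeR, adjusted p = 0.00025).

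Slfn5, a long member found in the nucleus and induced by interferon, had 14.72, 11.95 and 10.07 FPKM in combination libraries and 9.1, 11.41 and 9.01 FPKM in radiation libraries. It had 5.18, 5.17 and 7.4 FPKM in Complex 1 libraries and 3.3, 3.89 and 3.45 FPKM in control libraries. Here too only combination and radiation overlapped. Its log2 fold change of combination over control was 1.74 ± 0.17 (edgeR, adjusted p = 7.2e-05), the smallest adjusted p among the 7.

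Slfn8, another long member, had 21.57, 22.89 and 25.59 FPKM in combination libraries, 19.87, 22 and 20.75 FPKM in radiation libraries, 11, 11.09 and 19.44 FPKM in Complex 1 libraries, and 8.75, 12.23 and 12.7 FPKM in control libraries. Complex 1 replicates 1 and 2 lay within the control range, and replicate 3 lay just under the radiation range. The log2 fold change of combination over control was 1.01 ± 0.19 (edgeR, adjusted p = 0.0028).

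Slfn9, the neighbour of Slfn8, had 41.86, 50.27 and 46.87 FPKM in combination libraries, 44.88, 53.67 and 44.6 FPKM in radiation libraries, 49.16, 52.06 and 61.31 FPKM in Complex 1 libraries, and 41.44, 48.75 and 52.19 FPKM in control libraries. All 4 groups overlapped. Combination over control gave a log2 fold change of -0.08 ± 0.11, with a 95% interval of -0.32 to 0.16 (edgeR, adjusted p = 0.64). The near-copies of the response element upstream of Slfn8 and Slfn9, printed above, thus stood before a gene that rose and one whose change did not pass the test.

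Slfn3, an intermediate member described in T cells and, in rats, in gut epithelium, was the lowest of the 7 in combination, radiation and Complex 1 libraries. It had 4.68, 4.03 and 4.21 FPKM with the combination, 4.61, 5.01 and 4.26 FPKM with radiation, 4.66, 4.21 and 4.67 FPKM with Complex 1, and 4.05, 4.22 and 4.6 FPKM in control. The groups overlapped throughout. Combination over control gave a log2 fold change of -0.04 ± 0.11, with a 95% interval of -0.27 to 0.19 (edgeR, adjusted p = 0.82), and its sign turned under some settings.

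**Figure D1:**
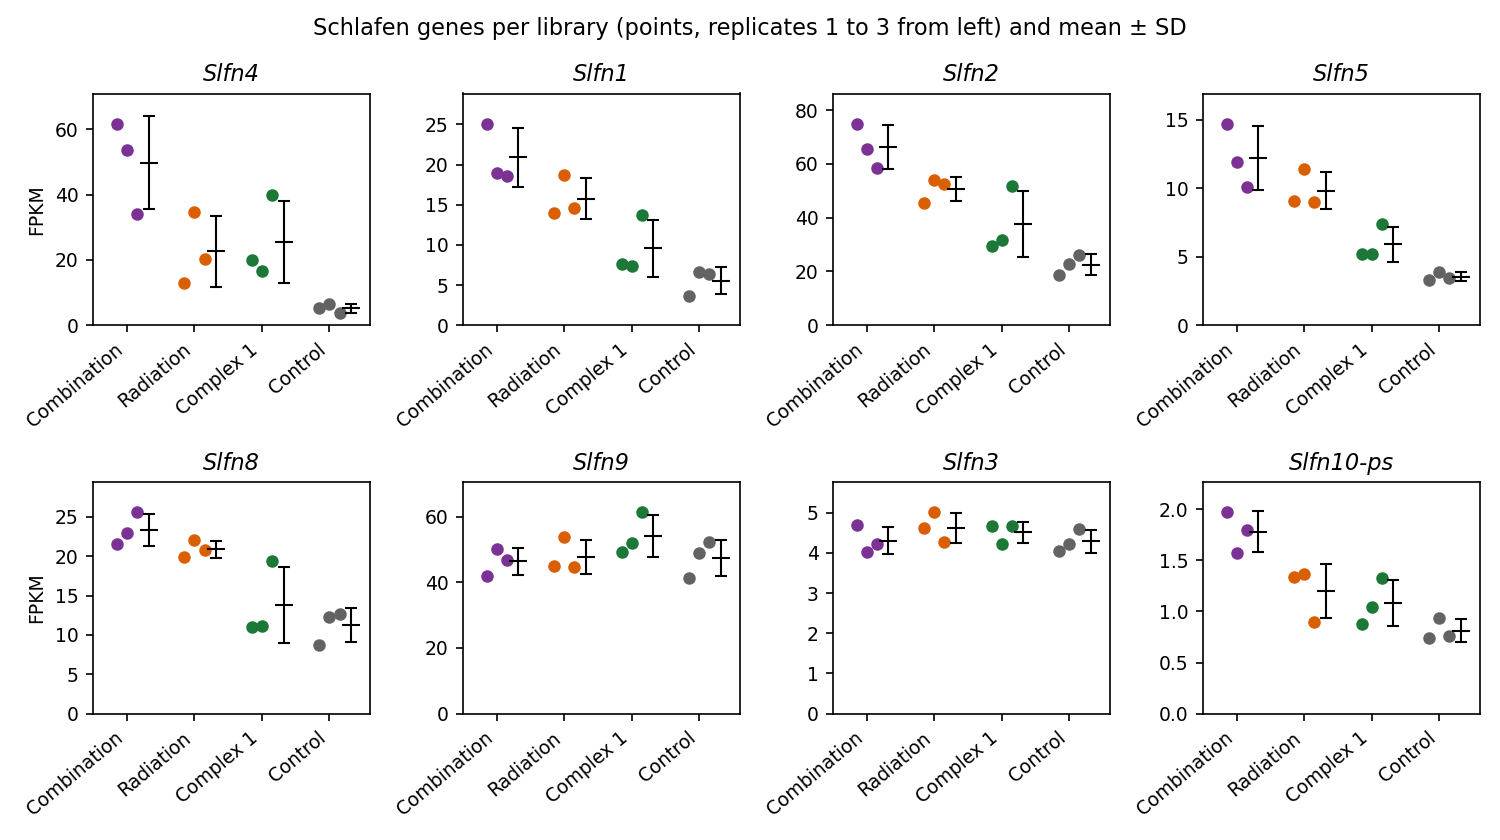
FPKM of the 7 schlafen genes and the pseudogene Slfn10-ps in each of the 12 libraries, by group; points are libraries and bars are the mean ± SD of 3. Slfn4, Slfn1, Slfn2, Slfn5 and Slfn8 are higher in every combination library than in every control library, and the groups overlap for Slfn9 and Slfn3.

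For combination against control, 5 of the 7 genes were called higher and 0 lower at an adjusted p under 0.05, where 11.9% of all tested entries were called higher and 10% lower. The groups did not overlap, with combination higher, for the same 5 genes, against 23.9% of all entries. The median log2 fold change of the 7 was 1.51, beside -0.01 over all entries tested. The control, radiation and Complex 1 libraries also served to choose the genes, and the combination libraries did not. Radiation and Complex 1 libraries enter the other tested comparisons too, so the Slfn4 values there are not free of that choice. The count was 5 without control replicate 2 and in each of the other 11 fits that left out 1 library. More cells that express a gene and more of its RNA per cell cannot be told apart in tissue RNA.

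Against Complex 1, the combination tumours had higher Slfn5, Slfn1, Slfn2 and Slfn8, which shows what the tumours held when radiation was given on top of the compound. Slfn5 was 2.04-fold higher (log2 1.03 ± 0.16, edgeR adjusted p = 0.0029) and Slfn1 2.15-fold higher (log2 1.10 ± 0.25, adjusted p = 0.015). Slfn2 was 1.74-fold higher (log2 0.80 ± 0.19, adjusted p = 0.018) and Slfn8 1.66-fold higher (log2 0.73 ± 0.19, adjusted p = 0.030). Slfn4 differed by a log2 of 0.94 ± 0.37, with a 95% interval of 0.15 to 1.74, and did not pass (adjusted p = 0.12); combination replicate 3 (33.99 FPKM) was below Complex 1 replicate 3 (39.99 FPKM). Slfn9 gave -0.25 ± 0.11, with a 95% interval of -0.49 to -0.01 and an adjusted p of 0.18, and Slfn3 -0.09 ± 0.11 (adjusted p = 0.65).

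That made 4 of 7 genes higher and 0 lower, where 4.73% of all entries were called higher and 5.25% lower, and the same 4 did not overlap between the groups, against 16.5% of all entries. Without Complex 1 replicate 1, without Complex 1 replicate 2 or without combination replicate 1, the count was 1, and Slfn5 was the gene that passed; its adjusted p was at most 0.018 in those fits. Slfn8 was also lost without combination replicate 2 (adjusted p = 0.065) or 3 (adjusted p = 0.093). Without Complex 1 replicate 3, which stood apart, 5 passed, since Slfn4 then differed by a log2 of 1.43 (adjusted p = 0.016).

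Between combination and radiation no schlafen gene passed. Slfn4 had the largest difference, a log2 of 1.12 ± 0.37 with a 95% interval of 0.32 to 1.91, an unadjusted p of 0.0094 and an adjusted p of 0.30 (edgeR). Slfn1 differed by 0.39 ± 0.24 (95% interval -0.13 to 0.91), Slfn2 by 0.37 ± 0.19 (-0.03 to 0.77), Slfn5 by 0.30 ± 0.16 (-0.05 to 0.64) and Slfn8 by 0.14 ± 0.19 (-0.27 to 0.55). The intervals of these 4 genes include 0 and also differences of over 0.5, so they do not show that radiation and the combination acted alike. Slfn9 gave -0.06 ± 0.11 and Slfn3 -0.12 ± 0.10.

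The count for combination against radiation was 0 of 7 by edgeR and 0 by DESeq2, where 0.615% of entries were called higher and 0.0366% lower by edgeR; at an unadjusted p under 0.05 it was 1, Slfn4. Slfn2 alone did not overlap, 58.38 FPKM at the lowest with the combination against 54.09 FPKM at the highest with radiation, beside 10.5% of entries without overlap. Without radiation replicate 2, the Slfn4 difference was 1.56 (adjusted p = 0.17).

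Radiation against Complex 1 set the single treatments beside each other. Slfn5 was 1.66-fold higher with radiation (log2 0.73 ± 0.16, edgeR adjusted p = 0.015) and was the 1 of 7 genes called higher, with 0 lower, where 3.75% of entries were called higher and 5.48% lower. Slfn8 (0.59 ± 0.19, adjusted p = 0.072), Slfn1 (0.72 ± 0.25, adjusted p = 0.090) and Slfn2 (0.43 ± 0.19, adjusted p = 0.17) had log2 differences above 0 that did not pass. Slfn4 gave -0.17 ± 0.37 (adjusted p = 0.81), with a 95% interval of -0.97 to 0.62, and Slfn9 gave -0.18 ± 0.11 (adjusted p = 0.32). Slfn3 gave 0.04 ± 0.10 (adjusted p = 0.87).

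Slfn5, Slfn1 and Slfn8 did not overlap between radiation and Complex 1 (3 of 7, against 13% of entries). Single libraries decided calls and signs here: Slfn4 turned to 0.32 without Complex 1 replicate 3 and to 0.11 without radiation replicate 1. Slfn5 was lost without Complex 1 replicate 1 (adjusted p = 0.059) or without replicate 2 (adjusted p = 0.078). The count was 1 without radiation replicate 2. Without Complex 1 replicate 3, 4 genes passed, namely Slfn5, Slfn8, Slfn1 and Slfn2.

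**Figure D2:**
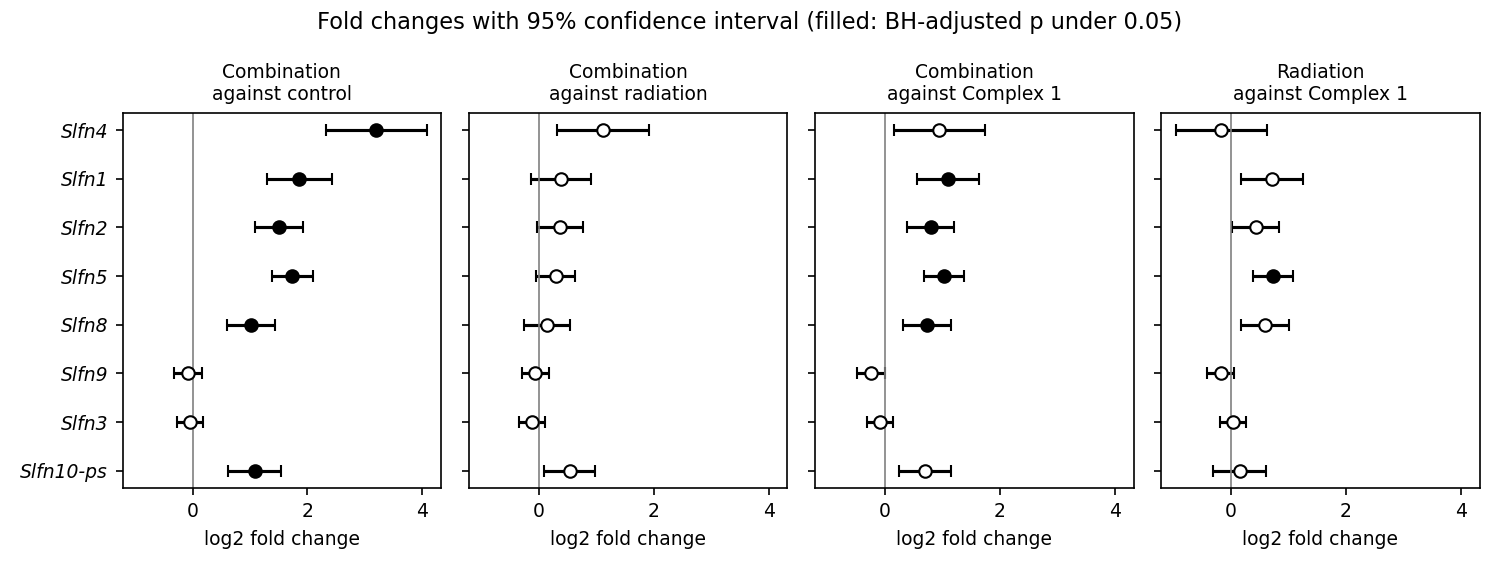
log2 fold changes of the schlafen genes with 95% intervals in the 4 tested comparisons; filled points had an adjusted p under 0.05. The intervals of Slfn3 include 0 in every panel, those of Slfn9 include 0 except in combination against Complex 1 (-0.49 to -0.01), and that of Slfn4 is the widest.

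The single treatments against control are described without a test, since the rise of Slfn4 in them was known when the genes were chosen. For radiation over control the log2 fold changes were 2.08 ± 0.40 for Slfn4, 1.47 ± 0.26 for Slfn1, 1.44 ± 0.17 for Slfn5, 1.14 ± 0.19 for Slfn2 and 0.87 ± 0.19 for Slfn8. For Complex 1 over control they were 2.25 ± 0.40 for Slfn4, 0.76 ± 0.26 for Slfn1, 0.71 ± 0.19 for Slfn2, 0.71 ± 0.17 for Slfn5 and 0.28 ± 0.19 for Slfn8. Slfn9 and Slfn3 lay between -0.02 and 0.16 in both. The groups did not overlap for 5 of 7 genes with radiation and for 4 of 7 with Complex 1 (Slfn8 overlapped), where 17.9% and 11.4% of all entries were higher without overlap. Both share the control libraries.

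The departure of the combination from the sum of the single treatments on the log2 scale was below 0 for each of the 7 genes. It is a description only: it subtracts both single-treatment differences from control, and a gene chosen for being high in those tends to a value below 0. It was -1.14 ± 0.53 for Slfn4, with a 95% interval of -2.29 to 0.02, -0.42 ± 0.23 for Slfn5, -0.37 ± 0.36 for Slfn1 and -0.35 ± 0.27 for Slfn2. Slfn9 gave -0.23 ± 0.16, Slfn3 -0.17 ± 0.15 and Slfn8 -0.13 ± 0.27. All 7 intervals included 0.

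With these shifts the make-up of the family's summed level changed. The 7 genes together came to 223 ± 23.7 FPKM with the combination, 172 ± 24.8 FPKM with radiation, 151 ± 40.9 FPKM with Complex 1 and 99.9 ± 13.0 FPKM in control (SD, n = 3 each). Slfn9 made up 21.0% of the sum with the combination, 27.8% with radiation, 36.8% with Complex 1 and 47.6% in control, while its own level overlapped in all groups. Slfn4 made up 22.01%, 12.7%, 16.2% and 5.33% in the same groups. Slfn2 made up 29.7% with the combination and 22.5% in control. FPKM is scaled to gene length but not corrected for shared sequence, which is 1.96% to 30.9% of the runs of these genes, so the shares are approximate.

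Over the 12 libraries, which differ by treatment, log2(FPKM + 1) of Slfn1, Slfn2 and Slfn5 ran close together, with Pearson correlations of 0.98 between Slfn1 and Slfn2, 0.98 between Slfn1 and Slfn5 and 0.97 between Slfn2 and Slfn5. Slfn8 correlated at 0.95 with Slfn1 and at 0.75 with Slfn4. Slfn9 stayed between -0.08 and 0.34 with every other member, and Slfn8, its near-copy upstream, was at 0.08 with it. With the group means taken out, Slfn8 and Slfn9 were at 0.80 and Slfn4 and Slfn5 at 0.87. The 12 points share treatment, tissue make-up and depth, so these values describe the libraries.

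The 3 Complex 1 libraries are described next, without a test, since the rise of Slfn4 with the compound over control is a value that chose the genes. In Complex 1 replicates 1 and 2, Slfn4 was 1.77 and 1.52 above the control mean on the log2(FPKM + 1) scale, while Slfn8 differed from it by -0.01 and 0.00. In those libraries the mean of 15 interferon-induced effector genes was -0.16 and -0.13 from the control mean. In Complex 1 replicate 3, Slfn4 was 2.74, Slfn8 0.76 and the effector mean 0.98 above the control mean. Slfn1, Slfn2 and Slfn5 lay between Slfn4 and Slfn8 in all 3 Complex 1 libraries, at 0.39 to 0.48 in replicates 1 and 2 and 0.89 to 1.20 in replicate 3.

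**Figure D3:**
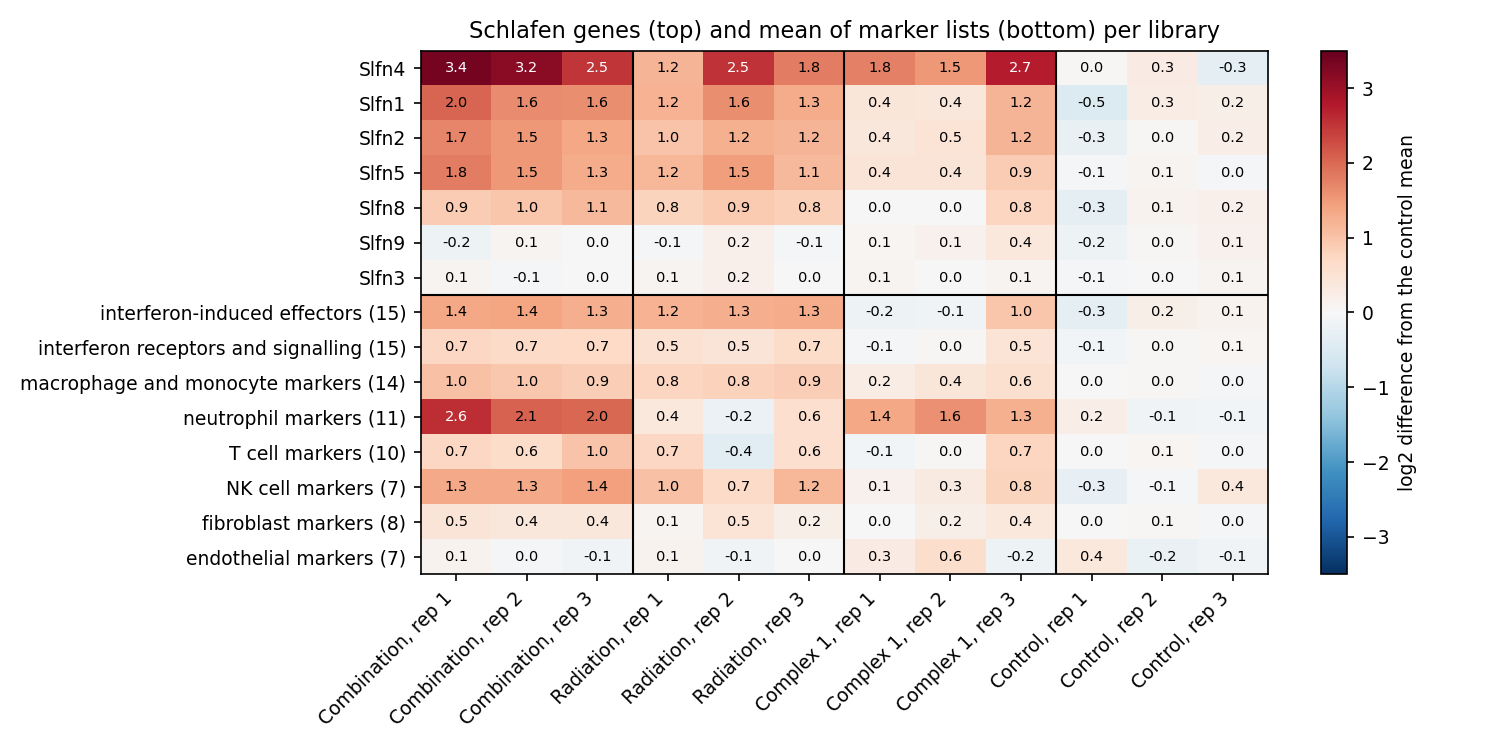
Difference of each library from the control mean in log2(FPKM + 1) for the 7 schlafen genes (top) and for the mean of the tested genes of 8 lists (bottom), with the 12 libraries in columns and replicate numbers as labelled. Slfn4 is raised in all 9 treated libraries, while Slfn8 and the interferon-induced effectors are near 0 in Complex 1 replicates 1 and 2.

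Type I interferon acts through its receptor (Ifnar1, Ifnar2), the kinases Jak1 and Tyk2 and transcription factors such as Irf9 to raise a set of antiviral effectors. Of 15 such effectors, all 15 were called higher in combination than in control tumours, with a median log2 fold change of 1.19. Mx1 rose by 1.99 ± 0.32 (edgeR, adjusted p = 0.00091). Isg15, a ubiquitin-like modifier, rose by 1.49 ± 0.25 (adjusted p = 0.0013). In combination against Complex 1, 11 of the 15 rose (median 0.97), for example Ddx60, an RNA helicase, by 1.06 ± 0.19 (adjusted p = 0.0055). Between combination and radiation 0 of the 15 passed by edgeR, 0 by DESeq2 and 0 at an unadjusted p under 0.05 (median 0.01), and 8 rose in radiation against Complex 1 (median 0.82). Without Complex 1 replicate 3, all 15 rose both in combination against Complex 1 (median 1.37) and in radiation against Complex 1 (median 1.37). The median over all entries was between -0.01 and 0.00 in each comparison. With all 12 libraries, 11.9% of entries were called higher in combination against control and 4.73% in combination against Complex 1. The shares were 0.615% in combination against radiation and 3.75% in radiation against Complex 1. The lists, here and below, were chosen with earlier results of these data known, so their calls only describe these libraries.

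Of 15 receptor and signalling genes, 11 were called higher in combination than in control tumours (median 0.49), 5 higher than with Complex 1 (median 0.48) and 1 higher than with radiation (median 0.11). Usp18, which restrains the receptor, rose by 1.22 ± 0.24 over control (edgeR, adjusted p = 0.0032) and by 1.25 ± 0.24 over Complex 1 (adjusted p = 0.0073). The 1 gene higher than with radiation was Socs3, a feedback inhibitor of cytokine receptors, at 1.05 ± 0.14 (adjusted p = 0.0050). Radiation against Complex 1 called 4 of the 15 higher (median 0.28). Shares of all entries called higher in combination were 11.9% against control, 4.73% against Complex 1 and 0.615% against radiation. For radiation against Complex 1 the share was 3.75%. Without Complex 1 replicate 3, combination against Complex 1 called 10 and radiation against Complex 1 called 7.

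Some schlafen proteins act on transfer RNA, and 8 genes of transfer RNA cleavage and translation stress were set beside them. In combination against control, 2 of the 8 rose and 0 fell, with a median log2 fold change of 0.07, where 11.9% of all entries were called higher. Map3k20, a kinase that senses stalled ribosomes, rose by 0.64 ± 0.08 (edgeR, adjusted p = 0.00019). In combination against Complex 1 (median 0.12) and in radiation against Complex 1 (median 0.13) 2 of the 8 rose, Map3k20 among them. The shares of all entries called higher there were 4.73% and 3.75%. In combination against radiation 0 of 8 passed by edgeR or DESeq2, or at an unadjusted p under 0.05 (median 0.03).

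Several markers of macrophages, neutrophils, T cells and NK cells were also higher in combination than in control tumours, while 0 of 7 tested endothelial markers passed. The part of these cell types in the schlafen levels was not tested. Summed macrophage and monocyte markers (14 genes, none at 0) were at 2245 to 2402 FPKM in combination libraries, 2201 to 2411 FPKM in radiation libraries, 1474 to 1659 FPKM in Complex 1 libraries and 1072 to 1237 FPKM in control libraries. Of the 14, 12 were called higher in combination than in control tumours, 7 higher than with Complex 1 and 0 higher than with radiation (edgeR; 0 by DESeq2 and 1 at an unadjusted p under 0.05). Without Complex 1 replicate 3, 10 were higher than with Complex 1. With all 12 libraries, 11.9%, 4.73% and 0.615% of all entries were called higher in combination than in control, Complex 1 and radiation tumours. Adgre1, a macrophage surface receptor, rose by 1.53 ± 0.14 over control (edgeR, adjusted p = 4.4e-05). Over the 12 libraries the mean of these markers correlated at 0.98 with Slfn5 and 0.87 with Slfn4. With the group means taken out the values were 0.72 and 0.69. The mean of 8 fibroblast markers correlated at 0.91 with Slfn4 (0.82 with the group means taken out) and at 0.82 to 0.89 with Slfn1, Slfn2, Slfn5 and Slfn8. For 7 NK cell markers the values were 0.89 to 0.94 with Slfn1, Slfn2, Slfn5 and Slfn8 and 0.75 with Slfn4. The mean of the 15 interferon-induced effectors was at 0.98 with Slfn8, and that of 7 endothelial markers was below 0 with every member (-0.55 to -0.13).

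Neutrophil markers followed another order. Their sum was 329.9 to 526.4 FPKM with the combination, 20.91 to 60.59 FPKM with radiation, 131.7 to 238.1 FPKM with Complex 1 and 24.77 to 39.91 FPKM in control. All 11 tested markers rose in combination against control, 8 against radiation and 3 against Complex 1, and 6 fell in radiation against Complex 1. The shares of all entries were 11.9%, 0.615% and 4.73% called higher, and 5.48% called lower in radiation against Complex 1. A marker low in control or radiation libraries could pass the filter on low values only through the other groups, which favours a rise. The log2 rise of Cxcr2 over control ranged from 1.73 to 3.75 across the 10 other settings. The part of the filter in these counts was not tested. The defining markers Ly6g, Ngp and Camp were under 1 FPKM in every library, and 2 of the 14 were at 0 in the radiation and in the control group. Over the 12 libraries the marker mean correlated at 0.73 with Slfn4, the highest value of the 7, and at -0.30 with the group means taken out. Without radiation replicate 2, the fit called 6 markers higher than with radiation and 6 higher than with Complex 1.

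T cell markers summed to 33.97 to 46.33 FPKM with the combination, 10.68 to 36.6 FPKM with radiation, 15.42 to 37.91 FPKM with Complex 1 and 16.51 to 18.86 FPKM in control, and 5 of the 10 tested rose in combination against control; Cd247, Cd5, Cd6 and Bcl11b were under 1 FPKM in every library. All 7 tested NK cell markers rose in that comparison, with sums of 107.9 to 112.4, 65.68 to 89.92, 30.68 to 52.77 and 16.05 to 39.61 FPKM in the 4 groups. Without control replicate 2 these counts were 2 T cell and 6 NK cell markers, and without Complex 1 replicate 3 the T cell count was 6. T cell and NK cell markers low in control could also pass the filter on low values only through treated libraries. Eomes, an NK cell marker, rose over control by a log2 of 1.03 to 2.11 across the 10 other settings. All 7 schlafen genes, Slfn9 and Slfn3 included, were at their highest of the radiation group in radiation replicate 2, which had the lowest T cell sum of all 12 libraries. Of 8 fibroblast markers 2 rose in combination against control. Of 7 tested endothelial markers 0 passed by edgeR, 0 by DESeq2 and 0 at an unadjusted p under 0.05. Beside these counts and those of T cell and NK cell markers, 11.9% of all entries were called higher in that comparison with all 12 libraries. B cell, dendritic cell and epithelial lists had 1 tested gene each. Cd22 and Ccr7 rose and the keratin Krt18 fell by 0.87 ± 0.27 (edgeR, adjusted p = 0.038) in that comparison. The Ccr7 and Krt18 calls held in 10 and 7 of the 12 fits without 1 library. All 8 B cell genes together summed to 0.79 to 1.16 FPKM in control libraries. Cd22 thus passed the filter on low values through treated libraries, which favours a rise over control.

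For each gene the 5 tested non-member genes with the most similar pattern were taken by Pearson correlation of log2(FPKM + 1) over the 12 libraries. For Slfn4 these were Ms4a6d (0.96), Il18 (0.96), Pirb (0.96), Rasgrp4 (0.96) and Cd53 (0.96). Slfn1, Slfn2 and Slfn5 had Ifi209 (0.98, 0.98 and 0.99) and Ms4a4c (0.97, 0.99 and 0.97) in common. Slfn8 was nearest to Oas2 (0.99), Ifi44 (0.99), Lgals3bp (0.99), Parp14 (0.98) and Ddx58 (0.98).

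Slfn9 was nearest to other genes: Chaf1b (0.96), Rnaseh2b (0.94), Pola2 (0.92), Gm13343 (0.91) and Tubb4b (0.91). Slfn3 had its nearest at 0.83, Zfp994, which is below the fifth-nearest gene of each other member. The values are the highest among all tested genes and describe these libraries. Ifi209, Pirb and Tubb4b share 47.2%, 44.1% and 53.0% of their sequence runs with other genes.

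The pseudogene Slfn10-ps, which lies between Slfn8 and Slfn2, had 1.97, 1.57 and 1.8 FPKM with the combination, 1.34, 1.37 and 0.9 FPKM with radiation, 0.88, 1.04 and 1.33 FPKM with Complex 1 and 0.74, 0.94 and 0.76 FPKM in control. It was higher in every combination library than in every other library. No control library reached 1 FPKM. The pseudogene thus passed the filter on low values through treated libraries, which favours a rise over control. Its log2 fold change of combination over control was 1.08 ± 0.21 (edgeR, adjusted p = 0.0033), and it did not pass against Complex 1 (0.69 ± 0.21, adjusted p = 0.053) or radiation (0.54 ± 0.21, adjusted p = 0.38). It shares 23.7% of its sequence runs with Slfn9 and 21.6% with Slfn8, so its level is uncertain. The other schlafen entries were too low to test, with 1 count of Slfn14, 28 of Slfnl1 and 5 of Slfn5os over all 12 libraries.

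Within 200 kb of the span of the cluster there were 15 tested entries that are not schlafen genes, and in combination against control 2 were called higher and 1 lower (3 of 15, where 11.9% of all entries were called higher and 10% lower). Gm20234, which overlaps Slfn2 on the opposite strand and had 104 counts over the 12 libraries, was higher by 2.71 ± 0.54 (edgeR, adjusted p = 0.0036), and by 1.00 with limma on log2(FPKM + 1), a scale that shrinks changes of low genes. The labels give no strand setting, so its reads and those of Slfn2 cannot be told apart. Gm20234 averaged 0.71 FPKM over the 12 libraries. It thus passed the filter on low values through its higher libraries only, which can favour a rise over control. AI662270, just beyond Slfn3, was higher by 0.48 ± 0.14 (adjusted p = 0.030), a call lost without control replicate 1 or 2 or combination replicate 1 or 2. Lig3, a DNA ligase, was lower by a log2 of -0.20 ± 0.06 (adjusted p = 0.047), a call that 2 of 12 fits with 1 library left out kept.

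Among the genes nearby, those on the Slfn5 side, Nle1 (-0.01 ± 0.14) and Rad51d (0.03 ± 0.11), and on the Slfn3 side, Ap2b1 (0.01 ± 0.06), did not pass. In the other 3 tested comparisons 0 of the 15 passed by edgeR and 0 by DESeq2; at an unadjusted p under 0.05 there was 1 in combination against radiation, 1 in combination against Complex 1 and 2 in radiation against Complex 1.

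**Figure D4:**
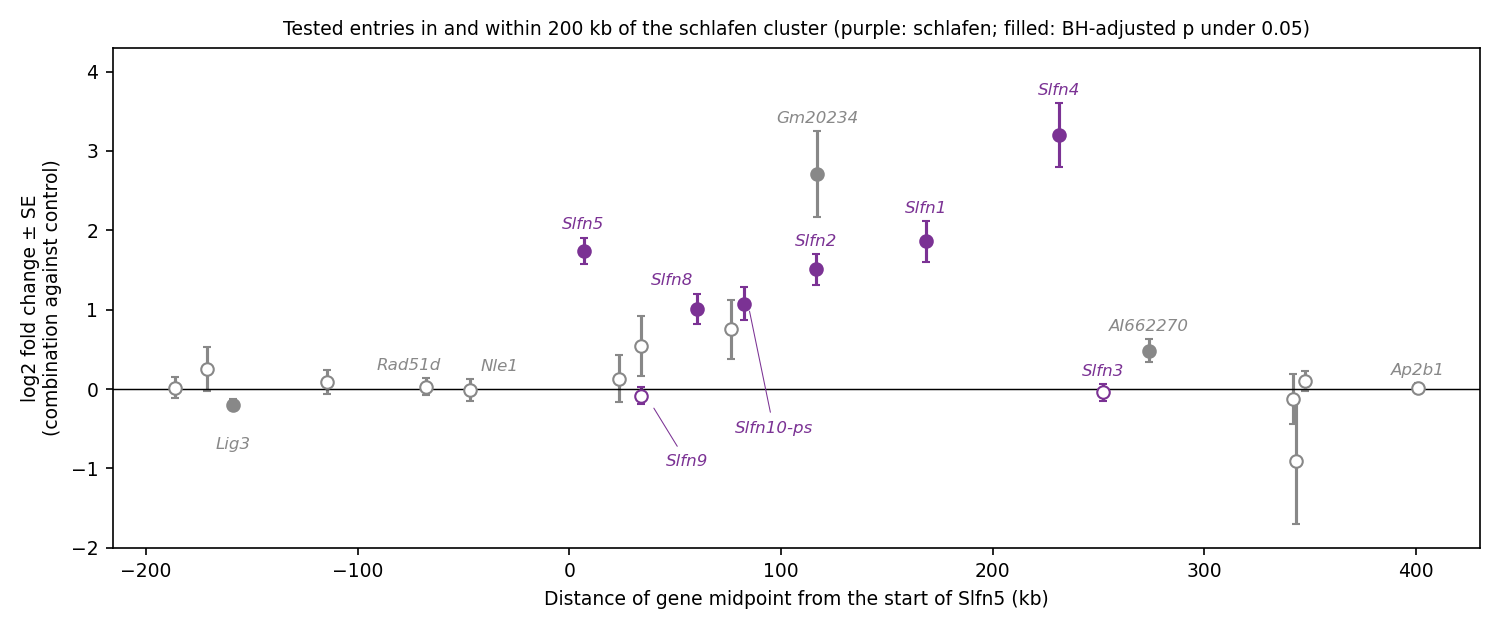
log2 fold change ± SE of combination over control against the distance of each tested entry's midpoint from the start of Slfn5 in mm39, in kb; purple marks schlafen entries and filled points had an adjusted p under 0.05. Slfn9 and Slfn3 lie near 0 inside the cluster, and named genes outside it lie between -0.20 and 0.48.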

How the data were processed

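RNA was sequenced from 12 CT26 tumour libraries, 3 in each of 4 groups. The authors deposited 1 table of 55415 entries with raw counts per gene and FPKM values. The submitters' processing notes name the mm39 build, DESeq2, HTSeq 2.0.1 and STAR 2.5.3a, and no source used here gives their settings or order. The deposited FPKM could be recomputed from the counts within 0.005. Entries at 1 FPKM or more in 3 or more libraries were kept, and the counts of all 12 libraries were fitted together with edgeR 4.0.16 in R 4.3.3 (TMM scaling, quasi-likelihood test, group means, Benjamini-Hochberg adjustment over 13668 entries, threshold 0.05). The expression level in the text is the authors' FPKM, and correlations used log2(FPKM + 1). Sequence sharing was counted over 31-base runs of GENCODE M21 transcripts, and upstream sequences are RefSeq's of GRCm38.p6. The members and the gene lists were chosen with earlier results of these data known. Named genes are the schlafen entries, entries within 200 kb of the cluster, the 5 genes most alike each member, and list genes with the smallest p in a tested comparison where any passed. Libraries of a group differed by more than sampling noise, at 5.25 or more in chi-square per degree of freedom. Alternatives were DESeq2 1.42.0, limma 3.58.1 on log2(FPKM), other scalings and filters, a replicate block and leaving out each library. The test was checked on simulated data.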

Additional observations from a re-analysis of the deposited data

How the results depend on the processing

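The 5 schlafen genes called in combination against control passed in all 10 other settings and in all 12 fits without 1 library (range of the count 5 to 5). The replicate numbers showed no clear pairing of the samples. Deviations of same-numbered libraries correlated at -0.25 to 0.16 (median 0.02), and those of other-numbered libraries at -0.24 to 0.18 (median -0.01). A weak pairing, or one limited to some genes, could go unseen in these values. With the replicate block, radiation against Complex 1 called 2 genes in place of 1, adding Slfn8 (adjusted p = 0.025), and the counts of the other 3 comparisons were the same. For radiation against Complex 1 the count was also 3 by DESeq2, 4 without a filter, 2 without a filter and with edgeR's adjusted deviances (a setting chosen after seeing the data), and 0 to 4 without 1 library. For combination against radiation it was 2 without a filter (Slfn2 and Slfn4), 0 to 0 without 1 library, and 1, Slfn4, without Complex 1 replicate 3 and radiation replicate 2 together (log2 1.55, adjusted p = 0.023; chosen after seeing the data); without these 2 libraries radiation against Complex 1 called 4. For combination against Complex 1 it was 1 to 5 without 1 library and 3 to 6 in the other settings, counted in either direction. Slfn9 and Slfn3 were below 0 in all 10 other settings, at -0.25 to -0.22 and -0.10 to -0.06. A count of 6 thus includes a gene called lower. Slfn8 was lost with only the 2 groups compared (adjusted p = 0.060) and with robust estimation (adjusted p = 0.069). The unfiltered fit estimated one spread shared by every gene (an infinite prior), while the same genes with adjusted deviances gave a prior of 13.8 degrees of freedom. Among the schlafen genes some signs turned. Slfn3 in combination against control was 0.0060 with library totals and 0.0040 and 0.00468 with limma on log2(FPKM + 1) and log2(FPKM + 0.1), and -0.11 to 0.0083 without 1 library. Without 1 library, Slfn9 in combination against radiation ranged from -0.12 to 0.028 (0.028 without both libraries above), and in radiation against Complex 1 Slfn3 ranged from -0.024 to 0.091 and Slfn4 from -0.61 to 0.32. The cause was not tested. Other scalings moved the median of all genes by under 0.1 log2. The lowest count behind a value of the 7 genes was 124 (Slfn1). Slfn14, Slfnl1 and Slfn5os had 1, 28 and 5 counts over all 12 libraries, and whether depth limits them was not tested.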
